A study of Homo sapiens with 18 samples.

Results

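HCC827 and H1975 are established human lung adenocarcinoma cell lines, and the 6 libraries described here, of 18 in the whole series, are the ones whose labels name PacBio. Full-length cDNA of 3 HCC827 and 3 H1975 samples was sequenced by Iso-Seq on a PacBio Sequel II, so the question put to the counts was which genes differed between the lines when each molecule is read end to end and few molecules are read. The cells came from a public repository and grew, untreated, in serum-containing RPMI 1640 to about 100% confluency. Libraries were made from total RNA with sequins, synthetic RNA standards, added. They went through 12 PCR cycles and a size selection aimed at about 2 kb. The labels call the 3 samples of a line independent. Each line is a single long-established culture, so a difference here is one between HCC827 and H1975, not between classes of tumour.

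Both lines carry activating mutations in EGFR, the receptor tyrosine kinase that passes growth factor signals to the RAS and PI3K pathways, and both are used as models of EGFR-driven lung cancer. Lung adenocarcinoma is an epithelial tumour. Its cells usually keep keratins, cadherin junctions and secretory genes, and some lines instead make matrix proteins such as fibronectin and collagen that are typical of mesenchymal cells. Iso-Seq reads whole transcripts, which favours molecules near the selected size over very short or very long ones.

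The libraries held 54339, 40910 and 37795 counts on genes in HCC827 replicates 1, 2 and 3, and 41253, 53074 and 50324 counts in H1975 replicates 1, 2 and 3. Between 9001 and 11361 genes had a count in a library, but only 740 to 1273 genes had 10 or more. The 20 most abundant genes took 3.80% to 5.56% of a library, so no small group of transcripts dominated. FLNA, encoding the actin crosslinker filamin A, was the gene with most counts in 5 libraries, and OS9 was in HCC827 replicate 3. Over both lines together all 10 markers of lung adenocarcinoma epithelium had counts. They summed to 133, 104 and 221 in the HCC827 libraries and 95, 78 and 70 in the H1975 libraries. In H1975 NAPSA, NKX2-1 and SFTPB were at 0. Of 12 haematopoietic markers 4 had counts, mostly LCP1 in HCC827 and mostly other markers in H1975, while the leukocyte antigen gene PTPRC was at 0 in the 6 libraries. Endothelial markers summed to 0, 0 and 0 in HCC827 and 1, 1 and 1 in H1975.

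Libraries of 1 line were not equally alike. For HCC827 replicates 1 and 2 the average chi-square over genes was 0.671, and for H1975 replicates 2 and 3 it was 0.550; sampling alone gives about 1, so within each of these close pairs the libraries differed by less than the sampling noise. HCC827 replicate 3 differed from its line by more (4.41 and 4.88), and H1975 replicate 1 by a little (1.34 and 1.51). HCC827 replicate 3 is the library whose column header alone mentions polyA. Libraries that agree this closely may not be separate samples, and the p-values of the 6-library fit are then too small. Results are therefore also given from a fit in which each close pair was summed and counted as 1 sample, called the summed-pair fit here. The p-values measure only the spread between these samples.

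Of 14810 genes with a count, 901 features had enough counts to be tested, and they held 33.0% of all counts. HCC827 differed from H1975 at 206 features (22.9% of those tested; edgeR quasi-likelihood, Benjamini-Hochberg adjusted p below 0.05). They were 103 higher and 103 lower, 11.4% each, and the median log2 fold of all tested features was 0.02. In the summed-pair fit 63 of 1885 tested features (3.34%) were called, 29 higher (1.54%) and 34 lower (1.8%), and 18 of the 206 were among them. Each of the 206 kept its direction in that fit. To be tested a feature had to reach the minimum in at least 3 libraries, so a gene that is sparse in 1 line was tested only where it is high in the other. For such genes the call follows in part from having been tested. The smallest called changes were 0.92 and -0.86 on the log2 scale, and the median standard error was 0.34.

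Many features repeat the same molecules. A gene and an overlapping antisense or host gene can both be credited with a read, and the sources used here do not say whether counting used strand. Joining features whose exons overlap turned the 206 calls into 140 of 648 tested loci (21.6%), 75 higher (11.6%) and 65 lower (10%), with 0 loci called in both directions. Of the 206, 37 had exactly the same 6 counts as an overlapping feature. The clustered gamma protocadherin genes, neural cell adhesion genes that share their last exons, made up 22 of the 103 lower features but form 1 locus. PCDHGC3, at the shared end, had 7, 6 and 1 counts in HCC827 and 12, 15 and 20 in H1975. Keeping 1 feature for each set with equal counts gave 170 calls among 839 (20.3%), 90 higher and 80 lower (10.7% and 9.54%).

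**Figure D1:**
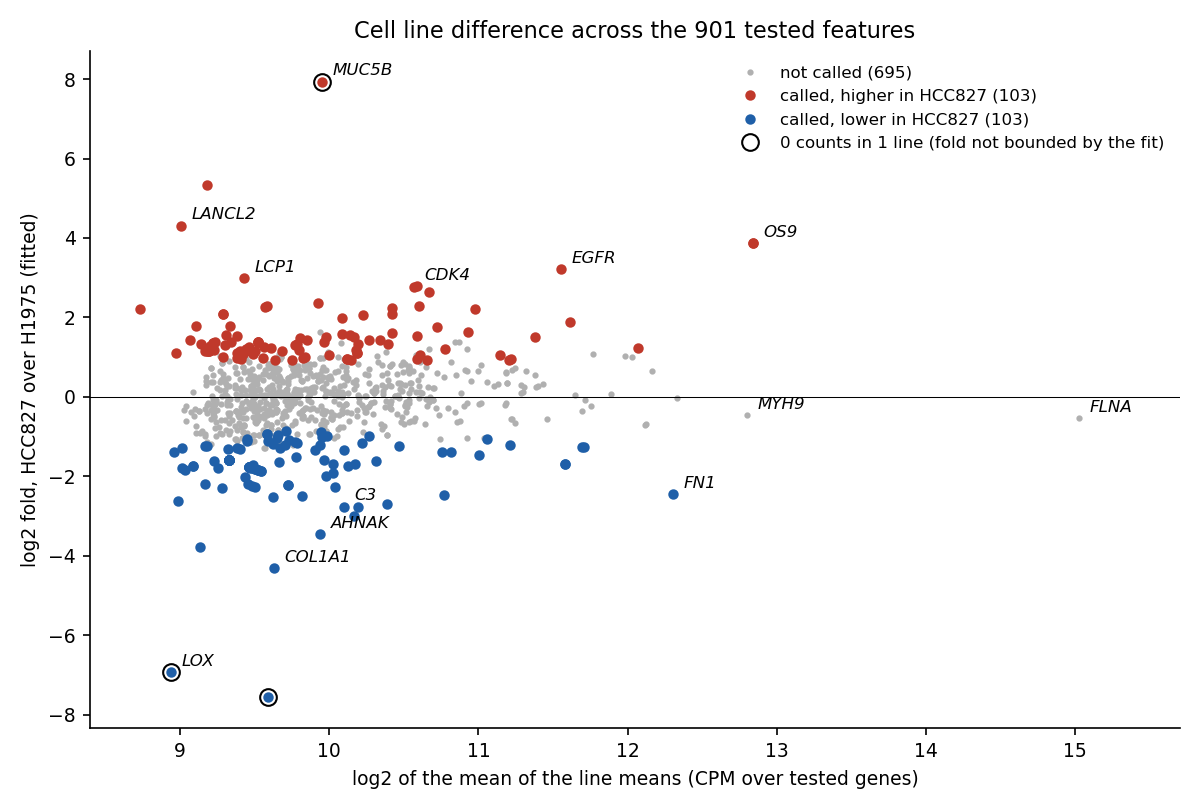
Mean level of each tested feature (horizontal axis, log2 of CPM over tested genes) against the fitted log2 fold of HCC827 over H1975 (vertical axis). The 103 higher features (red) lie at 0.92 or above and the 103 lower ones (blue) at -0.86 or below. Some of the 695 features not called (grey) have folds as large, such as KRT7 at 1.38. The circled genes had 0 counts in 1 line, so that their fold depends on the fit.

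Among called features that have a gene symbol and do not overlap between the lines, the 14 with the highest and the 14 with the lowest fold carry most of what follows. The highest were led by MUC5B, LANCL2, OS9, EGFR and LCP1, and LOX, COL1A1, SRFBP1 and AHNAK were among the lowest. A feature without a symbol, ENSG00000267881 on chromosome 19, would stand between MUC5B and LANCL2, with 23, 19 and 9 counts in HCC827 and 0, 1 and 0 in H1975 and a log2 fold of 5.33. Without HCC827 replicate 3 all 28 stayed called, and in the summed-pair fit 7 of each 14 did. Their median canonical transcript length was 3410 bases in the higher set and 5573 bases in the lower set. For 6 of these genes the 250 bases before the RefSeq start (GRCh38.p14) are shown, since a reader following up these genes would start from their promoters. They are given in the order of fold, 5′ to 3′ on the gene's strand, with capitals for matches to 4 motifs on either strand: the GC box (GGGCGG), the TATA box (TATAAA), the E-box bound by ZEB and SNAI repressors (CAGGTG) and the AP-1 site (TGACTCA).
OS9, chr12:57693882-57694131, plus strand: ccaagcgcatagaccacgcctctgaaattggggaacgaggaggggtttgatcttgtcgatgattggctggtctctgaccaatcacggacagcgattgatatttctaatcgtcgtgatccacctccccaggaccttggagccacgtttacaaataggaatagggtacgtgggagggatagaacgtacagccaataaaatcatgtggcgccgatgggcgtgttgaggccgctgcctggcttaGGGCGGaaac
EGFR, chr7:55018767-55019016, plus strand: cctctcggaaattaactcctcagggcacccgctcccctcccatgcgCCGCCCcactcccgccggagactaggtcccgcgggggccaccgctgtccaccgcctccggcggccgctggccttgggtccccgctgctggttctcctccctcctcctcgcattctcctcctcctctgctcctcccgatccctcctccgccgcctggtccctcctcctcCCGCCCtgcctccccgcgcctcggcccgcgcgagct
LCP1, chr13:46182178-46182427, minus strand: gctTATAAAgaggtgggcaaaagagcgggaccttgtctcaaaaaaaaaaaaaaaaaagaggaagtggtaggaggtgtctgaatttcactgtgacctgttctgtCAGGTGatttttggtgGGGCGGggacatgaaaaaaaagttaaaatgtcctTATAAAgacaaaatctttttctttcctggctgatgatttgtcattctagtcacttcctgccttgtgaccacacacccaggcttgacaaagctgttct
LOX, chr5:122078260-122078509, minus strand: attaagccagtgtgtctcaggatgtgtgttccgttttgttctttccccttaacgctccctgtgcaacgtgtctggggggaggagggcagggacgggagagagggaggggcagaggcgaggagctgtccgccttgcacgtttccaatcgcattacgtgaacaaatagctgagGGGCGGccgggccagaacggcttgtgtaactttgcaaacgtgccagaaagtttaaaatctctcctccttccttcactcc
SRFBP1, chr5:121961725-121961974, plus strand: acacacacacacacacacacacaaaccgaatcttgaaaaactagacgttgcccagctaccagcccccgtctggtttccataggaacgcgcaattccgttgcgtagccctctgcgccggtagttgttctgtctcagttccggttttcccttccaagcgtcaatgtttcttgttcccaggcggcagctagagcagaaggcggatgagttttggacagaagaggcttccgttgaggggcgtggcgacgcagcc
AHNAK, chr11:62545827-62546076, minus strand: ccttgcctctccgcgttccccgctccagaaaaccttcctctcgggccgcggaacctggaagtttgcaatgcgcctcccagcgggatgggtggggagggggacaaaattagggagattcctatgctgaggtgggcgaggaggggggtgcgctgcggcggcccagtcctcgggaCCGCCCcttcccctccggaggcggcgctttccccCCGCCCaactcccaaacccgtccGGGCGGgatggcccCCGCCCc

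The GC box occurred in 5 of these 6 windows, the TATA box and the E-box in that of LCP1, and the AP-1 site in 0. Over all called features with a promoter in the table, 45 of 61 higher genes held a GC box (73.8%), and 45 of 77 lower genes did (58.4%), against 68.9% of 623 tested genes and 42.3% of 27305 genes. The E-box was in 13.1% of the higher and 15.6% of the lower genes, against 16.5% of tested genes. The motifs do not overlap each other in sequence, and these shares describe letters, not binding. The median GC content was 68.8% for higher genes and 62% for lower genes, against 66% for tested genes.

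**Figure D2:**
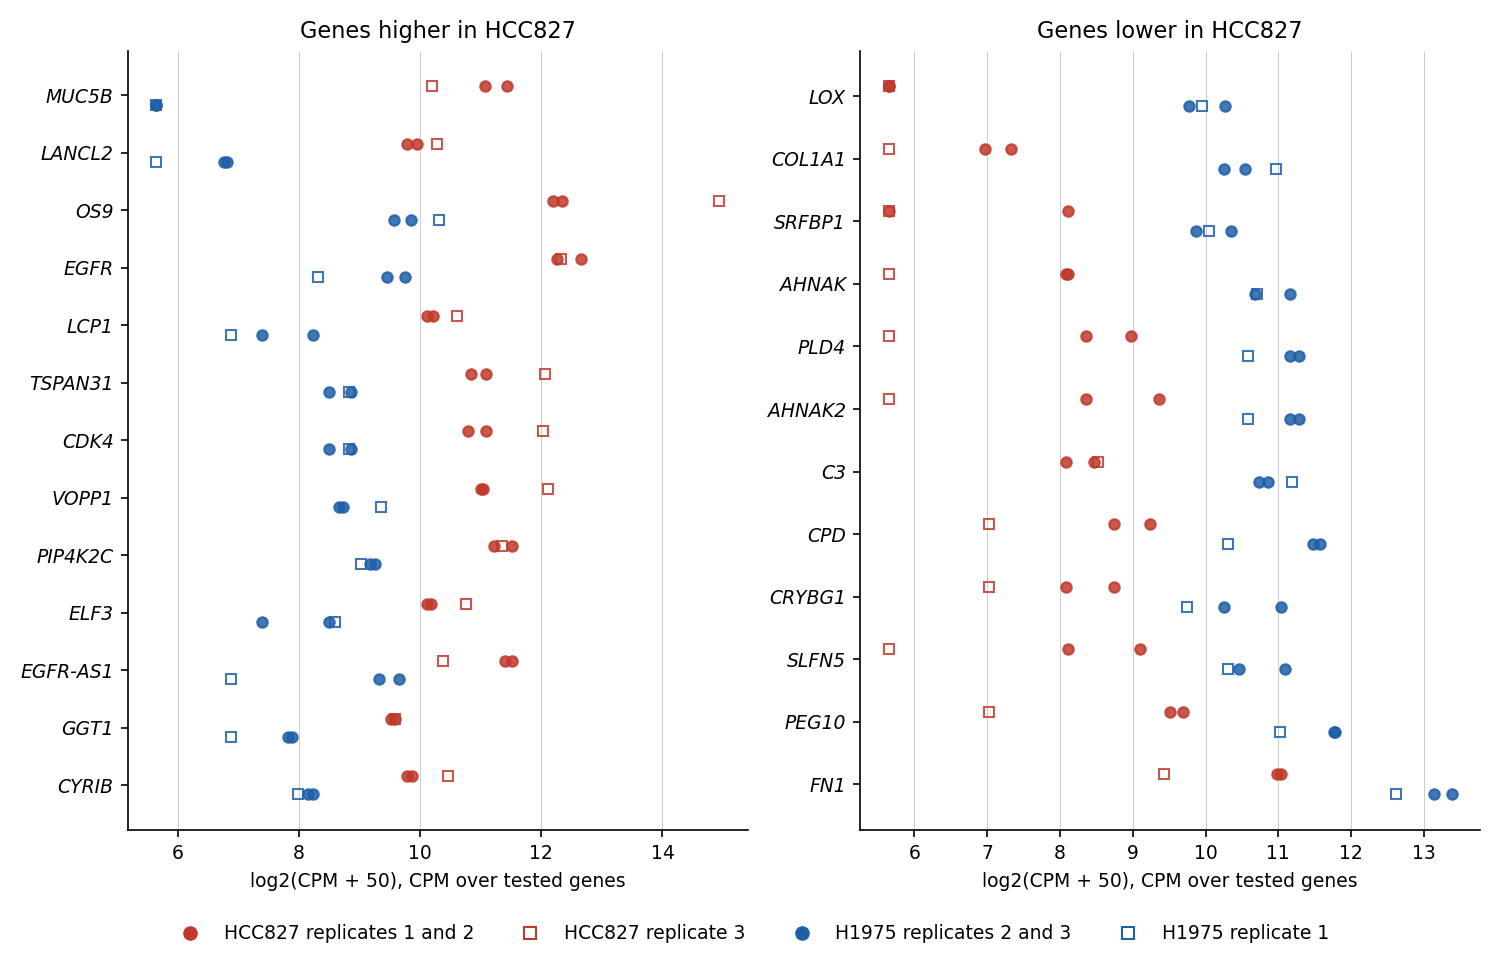
Level of 13 of the 14 genes with the highest fold (left) and 12 of the 14 with the lowest fold (right) in each library, as log2(CPM + 50) with CPM over tested genes. HCC827 libraries (red) lie right of H1975 libraries (blue) on the left and left of them on the right; open squares are HCC827 replicate 3 and H1975 replicate 1, of which HCC827 replicate 3 stands far right at OS9 (394 counts) and at 0 counts for AHNAK, AHNAK2, PLD4 and SLFN5.

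EGFR and its neighbours on the short arm of chromosome 7 were higher in HCC827 as a block. EGFR (ENSG00000146648, chr7:55019017-55211628, GRCh38) had 115, 64 and 64 counts in HCC827, against 4, 11 and 13 in H1975. Every HCC827 library lay far above every H1975 library. The log2 fold was 3.21 ± 0.37 (SE, adjusted p = 0.00152, and 0.0268 in the summed-pair fit), and 3.82 with a length term for each library. LANCL2, a LanC-like protein gene next to EGFR, had 17, 11 and 15 counts in HCC827 and 0, 1 and 1 in H1975, a ratio of 23.5 over the summed counts (exact binomial 95% interval 6.12 to 200.2, counting error only). VOPP1, another neighbour, had 36, 27 and 55 counts in HCC827 and 9, 6 and 6 in H1975.

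The block ran on beyond these. CCT6A, a subunit of the chaperonin that folds actin and tubulin, SUMF2 and the overlapping kinase gene PHKG1 had log2 folds of 1.43, 1.52 and 1.55, with adjusted p of 0.0249, 0.0168 and 0.0168. Of 14 listed genes of this band 11 had a count and 6 were tested. These 6 were called higher, against 11.4% of all tested features, with a median log2 fold of 2.09, and 1.22 over 7 tested without HCC827 replicate 3. They reached the minimum through the HCC827 libraries, while less uneven neighbours were not tested, so the count does not stand for the band. In the summed-pair fit EGFR and LANCL2 were called, and VOPP1 had an adjusted p of 0.0538. Among neighbours not tested in the 6-library fit, SEC61G had 2, 1 and 7 counts in HCC827 and 0, 0 and 0 in H1975. It encodes a subunit of the protein-conducting channel of the endoplasmic reticulum. PSPH, a serine synthesis enzyme, had 11, 10 and 7 in HCC827 and 5, 6 and 4 in H1975, and NIPSNAP2 had 7, 9 and 7 in HCC827 and 2, 4 and 5 in H1975. PSPH and NIPSNAP2 were tested in the summed-pair fit and not called (adjusted p = 0.241 and 0.190). EGFR-AS1, antisense to EGFR, had 48, 38 and 16 counts in HCC827 and 1, 10 and 12 in H1975, and its exons overlap those of EGFR, so its reads cannot be told from EGFR's without strand.

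Few genes of the receptor's own pathway had enough counts to be tested. ERBB2, the sister receptor that pairs with EGFR, had 45, 19 and 10 counts in HCC827 and 25, 25 and 21 in H1975, a log2 fold of 0.12 (adjusted p = 0.861). SHC1, an adaptor that docks to phosphorylated EGFR, was the only called gene of 3 tested among 16 receptors, ligands and adaptors, and it was lower in HCC827 at -0.98 ± 0.27 (adjusted p = 0.0262, and 0.182 in the summed-pair fit). It had 13, 10 and 7 counts in HCC827 and 18, 26 and 21 in H1975. Of 17 MAPK output genes 3 were tested and 0 called by edgeR, DESeq2 or limma-voom, with 0 at an unadjusted p below 0.05. Over all tested features these methods called 22.9%, 14.8% and 9.88%. CCND1 had a log2 fold of 0.31 and MYC one of 0.15. DUSP6, a phosphatase that ERK signalling induces, had 10, 7 and 10 counts in HCC827 and 6, 3 and 5 in H1975, too few for the 6-library test. In the summed-pair fit it was not called, at a log2 fold of 0.96 (adjusted p = 0.245). Among other members not tested in the 6-library fit, FOSL1, an AP-1 subunit, had 7, 6 and 5 in HCC827 and 2, 3 and 1 in H1975. ETV4, an ETS factor, had 10, 8 and 6 in HCC827 and 3, 3 and 7 in H1975. It was not called in the summed-pair fit (log2 fold 0.90, adjusted p = 0.246). Its relative ETV5 had 6, 4 and 2 in HCC827 and 5, 7 and 7 in H1975.

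A second group of higher genes lay around CDK4, the cell cycle kinase that phosphorylates RB1, at 12q14, but not every neighbour was higher. CDK4 had 31, 28 and 52 counts in HCC827 and 6, 7 and 5 in H1975. TSPAN31, a tetraspanin gene on the other strand whose exons overlap those of CDK4, had 32, 28 and 53 counts in HCC827 and 6, 7 and 5 in H1975 as well, so the counts of the pair cannot be told apart without strand. PIP4K2C, a phosphatidylinositol phosphate kinase gene with no exon overlap, had 52, 31 and 32 counts in HCC827 and 7, 9 and 9 in H1975. Its log2 fold was 2.30 ± 0.30 (adjusted p = 0.00152, and 0.0363 in the summed-pair fit).

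OS9, encoding a lectin that brings misfolded glycoproteins to degradation, showed the largest single-library count of the set. It had 84, 68 and 394 counts in HCC827, against 18, 12 and 14 in H1975. The third HCC827 library alone lies far from the other two, and the lines do not overlap with or without it. The log2 fold was 3.87 ± 0.77 with it (adjusted p = 0.0103) and 2.41 without it, and the adjusted p was 0.0653 in the summed-pair fit. An unnamed overlapping gene carried the same 6 counts. MARS1 and DDIT3, listed in the same band, were tested and not called. Among neighbours not tested in the 6-library fit, METTL1 and EEF1AKMT3 each had 4, 1 and 1 counts in HCC827 and 1, 3 and 1 in H1975. CTDSP2 had 4, 6 and 4 in HCC827 and 9, 9 and 5 in H1975. ARHGAP9 had 6, 6 and 6 in HCC827 and 7, 9 and 9 in H1975. AGAP2 had 1, 1 and 2 in HCC827 and 1, 0 and 0 in H1975. Of 18 listed genes of 12q14, 6 were tested and 4 called, all higher, against 11.4% higher over all tested features. The 4 calls form 3 loci, since CDK4 and TSPAN31 overlap. CDK4, TSPAN31 and PIP4K2C reached the minimum through the HCC827 libraries, so the count does not stand for the band.

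Called loci were counted by chromosome, beside 11.6% higher and 10% lower over all 648 tested loci; whether their spread is uneven was not tested. On chromosome 8, 10 loci were higher and 2 lower of 24 tested, on chromosome 17, 15 were higher and 6 lower of 72, and on chromosome 3, 1 was higher and 9 lower of 32. All 10 higher loci of chromosome 8 lay beyond position 60000000, where 18 loci were tested, 0 were lower and 15 had a fold above 0. That boundary and the genes named from it were chosen after their values were seen, so the pattern has no test. ASPH, a hydroxylase of the endoplasmic reticulum, had 101, 68 and 92 counts in HCC827 and 42, 40 and 40 in H1975. CYRIB, an inhibitor of RAC1 signalling, had 16, 11 and 17 in HCC827 and 3, 4 and 4 in H1975. TPD52, ZFAND1, AZIN1, ATP6V1C1, LRATD2, HSF1, DGAT1 and CPSF1 were also called higher, with log2 folds between 1.05 and 1.76. MYC lies among them and had 23, 21 and 16 counts in HCC827 and 23, 16 and 20 in H1975. On the other side of the chromosome LOXL2 was lower in HCC827.

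**Figure D3:**
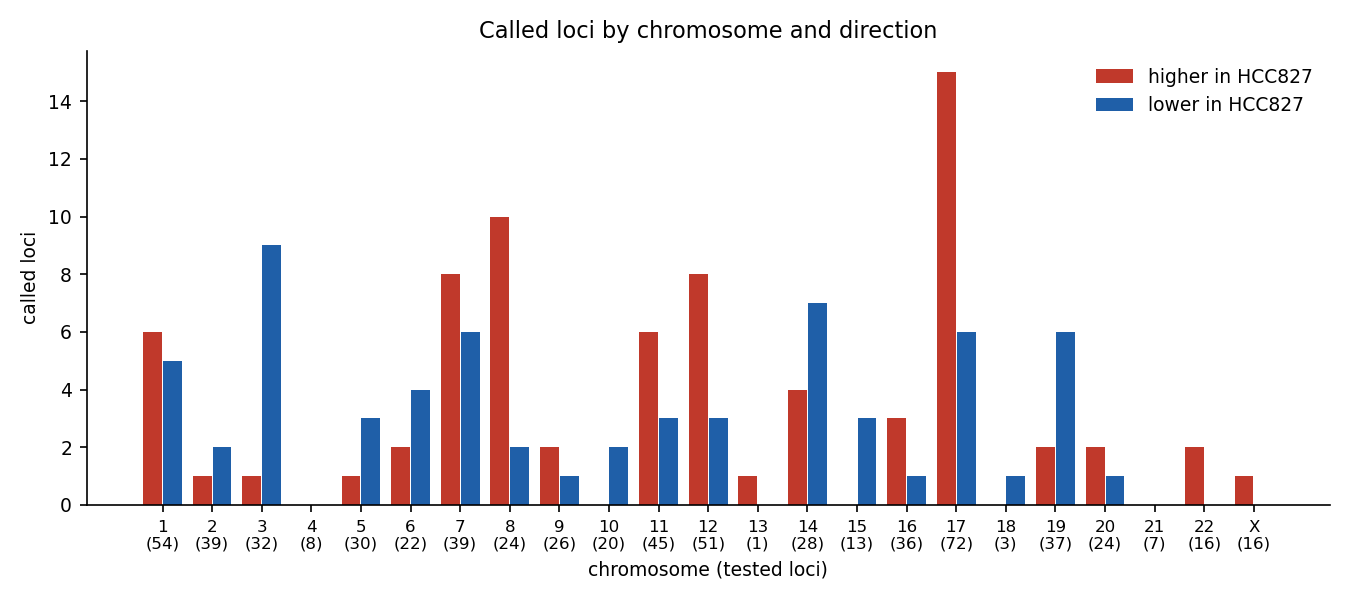
Number of called loci (vertical axis) on each chromosome, higher in HCC827 (red, left bar) and lower in HCC827 (blue, right bar), with the number of tested loci under each chromosome name. Chromosome 8 had 10 higher and 2 lower loci, chromosome 17 had 15 and 6, and chromosome 3 had 1 and 9.

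Genes of mesenchymal matrix were lower in HCC827. Of 33 listed genes 27 had a count and 8 were tested. Of these, 7 were called lower and 0 higher, against 11.4% each way over all tested features. Their median log2 fold was -2.33, against 0.02 over all tested features. Without HCC827 replicate 3, 10 were tested and called lower, with a median of -3.04. In that fit 11.9% of all tested features were called lower. LOX, which crosslinks collagen and elastin, had 0, 0 and 0 counts in HCC827 and 14, 14 and 19 in H1975. It was at least 14.3-fold lower in HCC827, taking 3 counts over the 3 libraries as the floor. COL1A1, a chain of type I collagen, had 2, 1 and 0 in HCC827 and 29, 20 and 23 in H1975, a ratio of 21.97 over the summed counts with H1975 on top (95% interval 7.22 to 109.0). LOX, COL1A1, PLOD2, LOXL2 and CALD1 were tested only through their H1975 counts, so the count does not stand for the list.

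FN1, encoding fibronectin, was the most abundant of the group. It had 37, 26 and 8 counts in HCC827 and 92, 152 and 170 in H1975. Its log2 fold was -2.44 ± 0.42 (adjusted p = 0.00537, 0.0731 in the summed-pair fit) and -2.07 without HCC827 replicate 3. PLOD2, a collagen lysyl hydroxylase, had 6, 3 and 4 in HCC827 and 20, 25 and 22 in H1975, and LOXL2, a relative of LOX, had 7, 6 and 4 in HCC827 and 19, 22 and 18 in H1975. CALD1, an actomyosin regulator, had 6, 3 and 1 in HCC827 and 12, 15 and 13 in H1975. TGFBI, a matrix protein gene induced by TGF-beta, was the tested member that was not called: it had 16, 9 and 37 counts in HCC827 and 42, 30 and 35 in H1975. Its log2 fold was -0.61 (adjusted p = 0.417), and -1.46 without HCC827 replicate 3 (adjusted p = 0.00275).

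Members too sparse for the 6-library test are given by their counts. VIM, encoding vimentin, the intermediate filament of mesenchymal cells, had 1, 2 and 1 counts in HCC827 and 13, 8 and 9 in H1975, and was called in the summed-pair fit at -2.83 (adjusted p = 0.0359). COL5A1 had 0 counts in HCC827 and 11, 8 and 12 in H1975, COL1A2 had 0 in HCC827 and 5, 7 and 9 in H1975, and SPARC had 1, 1 and 1 in HCC827 and 8, 8 and 5 in H1975. THBS1, a matrix thrombospondin, had 0 counts in HCC827 and 7, 19 and 18 in H1975, and the overlapping gene FSIP1 had those same counts. In the other direction, CCN1, a matricellular gene, had 17, 8 and 13 counts in HCC827 and 5, 4 and 4 in H1975, and COL4A2 had 5, 3 and 0 in HCC827 and 0, 0 and 0 in H1975. CDH2, the mesenchymal cadherin, was at 0 in the 6 libraries. In the summed-pair fit 12 of the 33 genes were tested and 7 were lower, against 1.8% lower over all features tested there. They were not the same 7 as in the 6-library fit. VIM, COL5A1 and THBS1 came in, and FN1, LOXL2 and CALD1 were not called (adjusted p = 0.0731, 0.0694 and 0.0868). The fibroblast markers summed to 2, 1 and 0 counts in HCC827 and 35, 23 and 27 in H1975, nearly all from COL1A1 and SFRP4, and PDGFRA, PDGFRB, DCN and LUM were at 0 in the 6 libraries.

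SRFBP1 illustrates the shared-read limit. It had 0, 3 and 0 counts in HCC827 and 15, 15 and 20 in H1975, and its exons overlap those of LOX on the opposite strand, whose H1975 counts were 14, 14 and 19. The 3 counts in HCC827 replicate 2 were in SRFBP1 and not in LOX.

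Several of the 14 genes with the lowest fold have very long transcripts. AHNAK, encoding a giant scaffold protein at the cell membrane, had 4, 3 and 0 counts in HCC827 and 24, 27 and 36 in H1975, a log2 fold of -3.45 ± 0.47 (adjusted p = 0.00191, 0.0359 in the summed-pair fit). AHNAK2, its paralogue on another chromosome, had 5, 8 and 0 in HCC827 and 22, 38 and 39 in H1975. PLD4 overlaps AHNAK2 and had nearly the same counts. CPD, a carboxypeptidase gene, had 10, 5 and 1 in HCC827 and 18, 51 and 45 in H1975, and CRYBG1 had 4, 5 and 1 in HCC827 and 12, 20 and 33 in H1975. In AHNAK2, CPD, CRYBG1 and FN1 the lowest library was HCC827 replicate 3, which was poor in long transcripts, and H1975 replicate 1 was the lowest of its own line. Without HCC827 replicate 3 the log2 folds were -2.96 for AHNAK and -2.27 for CPD. With a length term for each library the log2 fold was -2.49 for AHNAK and -1.81 for AHNAK2, against -2.76 for AHNAK2 in the 6-library fit.

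Actin-binding genes did not move one way. Of 34 listed genes 20 were tested, 2 were higher and 4 lower, against 11.4% each way over all tested features, and the median log2 fold was -0.29. LCP1, encoding L-plastin, an actin bundler best known in blood cells, had 19, 15 and 19 counts in HCC827 and 1, 2 and 4 in H1975. The other haematopoietic markers contributed few counts: CD68 had 4, 4 and 3 in HCC827 and 4, 4 and 2 in H1975. ACTG1, cytoplasmic gamma actin, was higher at 1.51 ± 0.42 (adjusted p = 0.0275), and at 1.01 without HCC827 replicate 3, which had 81 counts beside 50 and 35. FSCN1, encoding the bundler fascin, had 7, 5 and 4 counts in HCC827 and 15, 18 and 11 in H1975. ACTN1, TPM4 and IQGAP1 were lower at -1.21, -1.80 and -0.99 on the log2 scale. In the summed-pair fit LCP1 was called (adjusted p = 0.0359), and the adjusted p of the other 5 lay between 0.0599, for TPM4, and 0.172, for IQGAP1. With a length term IQGAP1 was at -0.65 (adjusted p = 0.227). FLNA itself could not be separated between lines: it had 550, 597 and 79 counts in HCC827 and 313, 788 and 812 in H1975, with a log2 fold of -0.53 ± 0.74.

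Laminin and integrin genes had calls in both directions. LAMA5 and LAMB1, laminin chains of basement membranes, were higher in HCC827 at 1.52 ± 0.37 and 1.79 ± 0.37. ITGA5, which forms the fibronectin receptor, had 7, 4 and 1 counts in HCC827 and 16, 13 and 17 in H1975, and CD44, the hyaluronan receptor, had 13, 8 and 2 in HCC827 and 18, 33 and 33 in H1975. LAMB2 was also lower at -1.52 ± 0.38. Of 26 integrin and laminin genes 10 were tested, 2 called higher and 3 lower, against 11.4% each way over all tested features. In the summed-pair fit the adjusted p of these 5 lay between 0.0926, for LAMB1, and 0.207, for LAMA5. TNC, encoding the matrix protein tenascin C, had 32, 26 and 7 counts in HCC827 and 38, 86 and 103 in H1975, and the overlapping gene DELEC1 had the same counts.

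Epithelial genes gave a mixed picture. CDH1, the cadherin of epithelial junctions, had 33, 20 and 21 counts in HCC827 and 24, 18 and 21 in H1975, so the lines overlap. Of 30 junction genes, all with a count, 12 were tested, 1 was higher and 2 lower, near the 22.9% called over all tested features. CLDN7, a tight junction claudin, had 14, 10 and 15 in HCC827 and 5, 5 and 7 in H1975. Its adjusted p was 0.0244, and 0.164 in the summed-pair fit, and it was not called by DESeq2 or limma-voom. CTNNB1, encoding beta-catenin, which links cadherins to actin and acts in WNT signalling, was lower, with 8, 7 and 4 counts in HCC827 and 25, 25 and 29 in H1975. Its log2 fold was -1.91 ± 0.29 (adjusted p = 0.00274, 0.0538 in the summed-pair fit). DSP, encoding the desmosome plaque protein desmoplakin, was lower at -1.62 ± 0.49 (adjusted p = 0.0386, 0.194 in the summed-pair fit). ELF3, an epithelial ETS factor, had 20, 14 and 21 counts in HCC827 and 5, 2 and 5 in H1975 (adjusted p = 0.00537, 0.0571 in the summed-pair fit). An unnamed gene overlapping ELF3 had nearly the same counts.

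Keratins of simple epithelia were not called, although each had a positive fold. The 5 tested of 6 had a median log2 fold of 1.21. Of them edgeR called 0, with 4 at an unadjusted p below 0.05, DESeq2 called 2 and limma-voom 0. Over all tested features these methods called 22.9%, 14.8% and 9.88%. KRT7 had 28, 21 and 63 counts in HCC827 and 17, 21 and 11 in H1975, and KRT19 had 14, 13 and 37 in HCC827 and 10, 8 and 10 in H1975. By CPM, HCC827 replicate 3 is the high library in both genes, and the remaining HCC827 libraries lie between it and H1975. The log2 fold of KRT7 was 1.38 (adjusted p = 0.0733), and 0.63 without HCC827 replicate 3. KRT8, with 34, 25 and 55 counts in HCC827 and 22, 16 and 17 in H1975, had a log2 fold of 1.21 (adjusted p = 0.0572). Without HCC827 replicate 3 it was 0.73 (adjusted p = 0.0411).

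Secretory genes of the airway were seen in HCC827. MUC5B, the gel-forming mucin of the airway, had 38, 36 and 14 counts in HCC827 and 0, 0 and 0 in H1975, at least 32.0-fold higher (adjusted p = 0.00161, 0.0223 in the summed-pair fit). It was tested only through its HCC827 counts. Its exons overlap those of the antisense gene MUC5B-AS1, which had 15, 20 and 0 counts in HCC827 and 0, 0 and 0 in H1975. CEACAM5, a surface glycoprotein of epithelial tumours, had 13, 11 and 3 counts in HCC827 and 0, 0 and 0 in H1975. CEACAM6, a relative, had 10, 8 and 9 in HCC827 and 0, 1 and 0 in H1975, and was called in the summed-pair fit (adjusted p = 0.0155). LCN2, an iron-scavenging defence protein, and PIGR, which carries IgA across epithelia, had 11 and 8 counts over the HCC827 libraries and 0 over the H1975 libraries. Of 23 listed genes 12 were at 0 in the 6 libraries, MUC5AC, SCGB1A1 and SLPI among them, and MUC1 had 0, 1 and 0 counts in HCC827 and 2, 0 and 0 in H1975.

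Alveolar genes had few counts in either line. NAPSA, a protease of surfactant processing, had 4, 4 and 7 counts in HCC827 and 0, 0 and 0 in H1975, and NKX2-1, the lung lineage factor, had 0, 3 and 1 in HCC827 and 0, 0 and 0 in H1975. SFTPB, SFTA2, SFTA3 and AQP5 also had a few counts in HCC827 and 0 in H1975. Other members had more counts in H1975. ABCA3 had 1, 1 and 2 in HCC827 and 1, 5 and 6 in H1975, and LAMP3 had 1, 0 and 0 against 1, 4 and 3. CAV1 had 7, 8 and 6 in HCC827 and 13, 11 and 8 in H1975, and SLC34A2 had 2, 1 and 0 against 2, 2 and 2. SFTPA1, SFTPC and SFTPD were at 0 in the 6 libraries. LPCAT1, which makes the lipid of surfactant and is also widely expressed, was the tested member of this list. It had 76, 46 and 89 counts in HCC827 and 28, 21 and 14 in H1975, a log2 fold of 1.88 ± 0.38 (adjusted p = 0.0112, 0.101 in the summed-pair fit).

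Beyond these groups, complement and stress genes gave single calls. C3, the central complement component, had 4, 4 and 4 counts in HCC827 and 34, 28 and 29 in H1975, a log2 fold of -2.76 ± 0.33 that was also called in the summed-pair fit (adjusted p = 0.0223). OAS3, an interferon-induced antiviral enzyme, was lower at -1.60 ± 0.37, as the 1 call among 5 tested interferon-stimulated genes. GPNMB, a lysosomal glycoprotein gene, had 4, 2 and 3 in HCC827 and 14, 20 and 16 in H1975. TKT, of the pentose phosphate pathway, and ABCC3, a drug exporter, were higher at 1.47 ± 0.39 and 1.42 ± 0.39. These were 2 calls of 4 tested among NRF2-related genes, where DESeq2 called 2 and limma-voom 0. TOP2A and MCM7, used in DNA replication, were higher at 0.95 ± 0.28 and 1.15 ± 0.30. These were 2 calls of 5 tested cell cycle genes, where DESeq2 called 0 and limma-voom 1. Beside such counts, 11.4% of all tested features were called higher and 11.4% lower. TFRC, the transferrin receptor, was lower at -1.11 ± 0.32. None of the calls in this paragraph but C3 and GPNMB passed in the summed-pair fit.

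Among 8 glycolysis genes, 13 translation factors, 9 splicing factors, 5 antigen presentation genes and 6 fatty acid genes, 0 were called by edgeR in the 6-library fit, nor by DESeq2 or limma-voom. Over all tested features edgeR called 22.9%, DESeq2 14.8% and limma-voom 9.88%. At an unadjusted p below 0.05 by edgeR the lists counted 4, 2, 1, 2 and 2, beside 326 of all 901 tested features. FASN, fatty acid synthase, had 99, 88 and 26 counts in HCC827 and 26, 42 and 40 in H1975. Its log2 fold was 1.08 (adjusted p = 0.0836), and 1.44 without HCC827 replicate 3 (adjusted p = 0.000377). HSP90AB1, with 32, 14 and 54 counts in HCC827 and 27, 23 and 20 in H1975, had a log2 fold of 0.67, and 0.03 without that library.

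**Figure D4:**
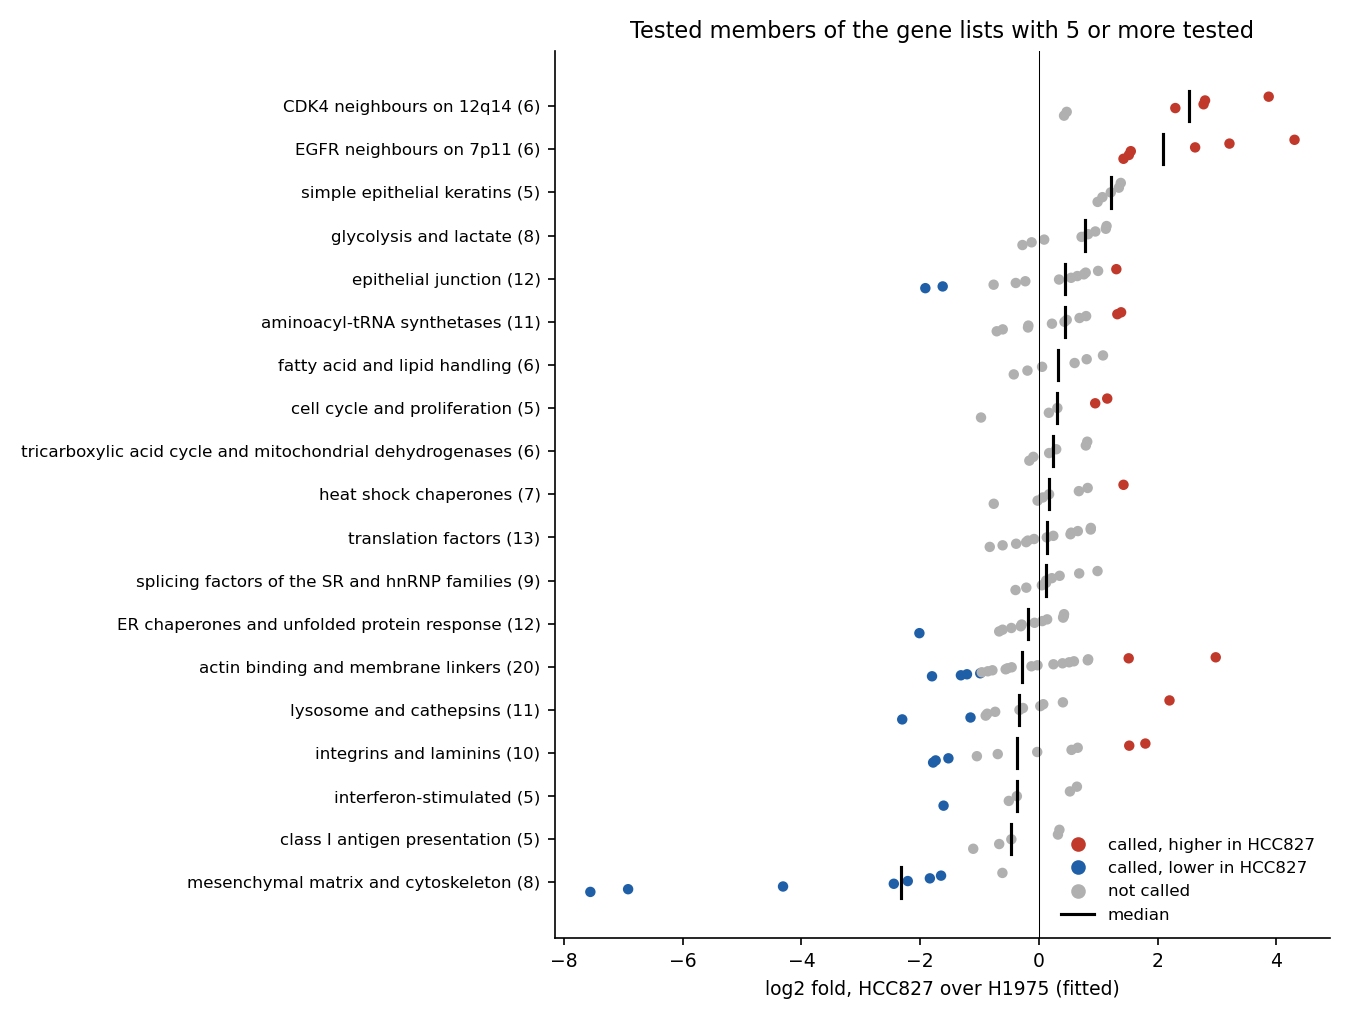
Fitted log2 fold of HCC827 over H1975 (horizontal axis) for each tested member of the gene lists with 5 or more tested members, whose number stands in brackets. The 7p11 and 12q14 lists lie on the right with 6 and 4 called members (red), the mesenchymal list on the left with 7 (blue), and most members of the other lists are grey and were not called; black bars are medians.

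Libraries of 1 line differed by transcript length. In tested features whose canonical transcript exceeds 8000 bases, HCC827 replicate 3 lay 0.84 below its line's mean (median, log2), and H1975 replicate 1 lay 0.25 below its own. In the class from 1000 to 2000 bases the same libraries lay 0.28 and 0.10 above. The class under 1000 bases did not continue this order: there they lay 0.34 and 0.05 below. Transcripts over 8000 bases took 6.54%, 6.63% and 3.28% of the counts in HCC827 and 6.14%, 9.31% and 9.86% in H1975. The shifts of these 2 libraries from their close pairs correlated across 1682 genes (r = 0.487, a description over genes that share the same 6 libraries). By chi-square, which also grows with a gene's counts, OS9, FLNA, KRT7, PSAP and ACTB set HCC827 replicate 3 apart most. PSAP had 47, 33 and 83 counts in HCC827 and 65, 55 and 55 in H1975, and ACTB had 32, 21 and 62 in HCC827 and 38, 40 and 32 in H1975. Larger shifts stood on fewer counts, as in APOM, with 44, 48 and 1 counts in HCC827, against 16, 28 and 26 in H1975.

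The line difference carried part of this pattern. Against 11.4% each way over all tested features, those over 8000 bases had 3 called higher and 16 lower of 51, with a median log2 fold of -0.56, and -0.40 without HCC827 replicate 3. From 1000 to 2000 bases, 15 were higher and 4 lower of 103, with a median of 0.32, and 0.22 without it. The count-weighted exon length per library, the mean exon length of the counted genes weighted by their counts, was 6210, 6098 and 5532 bases in HCC827 and 6238, 6587 and 6708 bases in H1975, a difference of -564 bases. The lines do not overlap, and the exact two-sided permutation p was 0.1, the smallest that 3 against 3 samples can give. With each close pair averaged and counted as 1 sample, the difference was -600 bases (exact permutation p = 0.333). Without HCC827 replicate 3 the difference was -357 bases. By canonical transcript length the lines do overlap (difference -447 bases, exact permutation p = 0.2). With a length term for each library, chosen after seeing the data, 215 features were called, 179 of them among the 206. What part of the individual calls length accounts for was not tested.

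**Figure D5:**
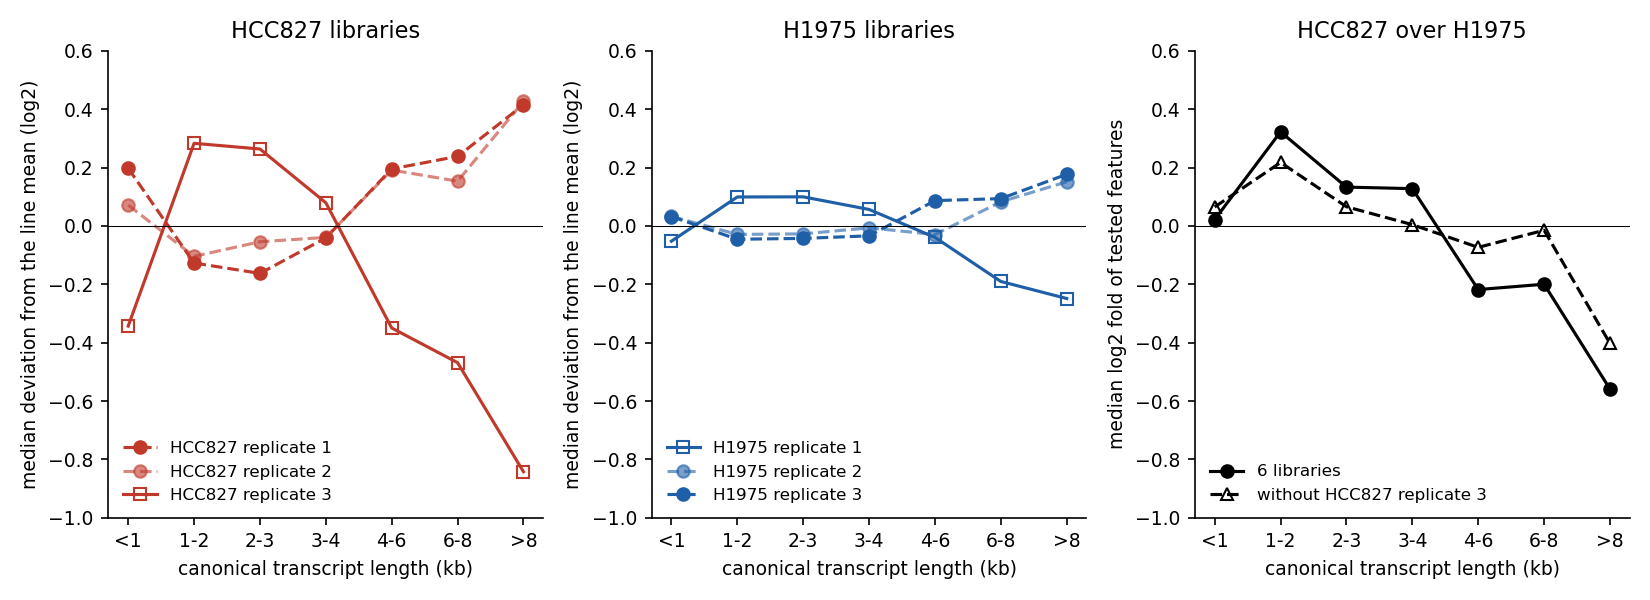
Median deviation of tested features from their line's mean in each HCC827 library (left) and each H1975 library (middle), and median log2 fold of HCC827 over H1975 (right), by canonical transcript length in kb. HCC827 replicate 3 and H1975 replicate 1 (open squares) drop to -0.84 and -0.25 in the longest class, and the median fold drops to -0.56 with 6 libraries and -0.40 without HCC827 replicate 3 (dashed).

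At equal depth the numbers of genes seen overlapped between the lines. Thinned to 37795 counts, the HCC827 libraries held 10036, 10153 and 9001 genes and the H1975 libraries 9830, 10251 and 10088. The ranges overlap (difference of means -326 genes, exact permutation p = 0.6), and the low value is HCC827 replicate 3. Over the 3 libraries of each line 11115 genes had a count in both, 1711 in HCC827 alone and 1984 in H1975 alone. Most genes seen in 1 line rest on few counts, the medians being 1 in HCC827 and 2 in H1975, and only 10 and 17 of them reached 20 counts. Beside the genes above, HCC827 alone had counts of HPGD, which degrades prostaglandins (14, 7 and 9), RAB15, an endosomal GTPase (10, 6 and 10), and the channel gene TRPC6 (12, 7 and 6). H1975 alone had counts of MMP14, a membrane metalloprotease (12, 11 and 15), WNT9A, a WNT ligand (13, 8 and 10), and CREB3L1, a transcription factor of collagen genes (6, 11 and 8). HPGD, RAB15, TRPC6, MMP14 and WNT9A were called in the summed-pair fit.

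Some gene classes cannot be compared here. The 15 genes of the mitochondrial genome, which every cell uses, are listed at 0 in the 6 libraries, and whether they were counted is not stated. Of 79 cytosolic ribosomal protein genes 73 had a count but 1 was tested. Their counts summed to 224, 152 and 370 in HCC827 and 99, 145 and 110 in H1975, with HCC827 replicate 3 again highest. Of 15 S100 genes 5 had a count and 0 were tested.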

How the data were processed

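The authors deposited, for each PacBio library, raw counts per Ensembl gene: whole numbers of full-length sequences, not normalised. Per the submitters' processing notes, minimap2 2.17, featureCounts and GRCh38 were used; the sources used here do not state the strand setting or how overlapping genes were treated. Sequin rows were left out. The 6 libraries were grouped by the line in their titles; libraries of other platforms were not used here. Gene positions and lengths came from GENCODE 44 (58207 of 58676 gene IDs matched) and promoters from RefSeq.

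HCC827 was compared with H1975 by edgeR 4.0.16 (R 4.3.3): features kept by filterByExpr (minimum count 10), TMM factors, robust quasi-likelihood test, Benjamini-Hochberg over all tested features, called at adjusted p below 0.05. Folds are HCC827 over H1975, and CPM, the usual scaled count, is taken over tested genes. The code was tested on simulated data. DESeq2 1.42.0 and limma 3.58.1 (voom), other filters and normalisations, each library left out in turn and the close pairs summed were alternatives. Library measures were compared by exact permutation tests (scipy 1.17.1). The sampling-noise check used genes with at least 20 counts; intervals and floors (3 counts, 95% confidence) cover counting error only.

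Genes were named by a rule: the 14 highest and 14 lowest folds among called features with a gene symbol whose libraries do not overlap between lines, the most abundant genes, called members of gene lists with up to 2 uncalled ones each, marker genes, genes counted in 1 line only with at least 20 counts, and genes that set HCC827 replicate 3 apart. Other genes named from lists by their counts, from chromosome 8, or from the summed-pair fit were chosen after their values were seen. The libraries compared and the gene lists were chosen with earlier results of these data known. A few genes that the rule names are not reported here.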

Additional observations from a re-analysis of the deposited data

How the results depend on the processing

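The 206 calls depended on which libraries entered and how they were counted. Leaving out 1 library at a time gave 24 to 336 calls: 24 without H1975 replicate 2, 33 without H1975 replicate 3, 79 without HCC827 replicate 1, 75 without HCC827 replicate 2, and 336 without HCC827 replicate 3. Counting each close pair as 1 sample gave 63, and 17 on the same 901 features. DESeq2 called 133 (56 higher, 77 lower) and limma-voom 89. A minimum of 5 counts gave 422, and no filter 971 (330 higher, 641 lower). Chosen after seeing the data, a term that sets HCC827 replicate 3 and H1975 replicate 1 apart gave 340, and leaving both out gave 332. Other size factors (197), no normalisation factors (199), the length term (215) and 1 feature per shared set (170) stayed within 1.5 times. Every one of the 206 that was tested kept its direction in each of these fits. Calls among gene list members fell to 17 with close pairs summed, against 50 in the 6-library fit. The 17 include genes that the 6-library fit did not test, VIM and CEACAM6 among them. Same-numbered libraries deviated from their lines' means with r of -0.536, 0.238 and -0.530. HCC827 replicate 3 and H1975 replicate 1 deviated together (r = 0.599), and deviations from a mean of 3 libraries depend on each other. These values therefore cannot show whether the replicate numbers pair the samples. A fit with the replicate number as a block called 50. The difference in genes detected per library at equal depth was 38.3 without HCC827 replicate 3, against -326 with it; over the libraries left out in turn it ran from -538 to 38.3. The log2 fold of ERBB2, which was not called in any fit, was -0.12 with close pairs summed, -0.035 on the same features, -0.061 by limma-voom, -0.0090 with no filter and -0.0037 with the block, and -0.37 to 0.47 with 1 library left out, below 0 without HCC827 replicate 1 or H1975 replicate 3. The log2 fold of MYC, also not called, was -0.052 with close pairs summed, -0.0029 with no filter, and -0.12 to 0.27 with 1 library left out, below 0 without H1975 replicate 2; the cause of these turns was not tested. Depth limits the comparison to 901 features, 623 of which had 50 to 100 counts over the 6 libraries.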

Other observations

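The summed-pair fit called 45 features that the 6-library fit did not test, because counting each close pair as 1 sample brings genes with fewer counts per library over the minimum. The following were chosen after their values were seen. Higher in HCC827 was EPHX1, an epoxide hydrolase, with 9, 9 and 7 in HCC827 and 2, 2 and 2 in H1975. Lower in HCC827 were LRP1, an endocytic receptor, with 2, 0 and 0 counts in HCC827 and 10, 10 and 10 in H1975, and SPOCK1, a matrix proteoglycan, with 1, 0 and 0 in HCC827 and 8, 11 and 10 in H1975. RIGI, a sensor of viral RNA, had 2, 1 and 0 in HCC827 and 9, 9 and 8 in H1975.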
